A study of Mus musculus with 5 samples.

Results

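The genes described here are 9 that type 2 innate lymphoid cells are known to use: the transcription factor Gata3, the receptors Il1rl1 and Klrg1, the secreted factors Il5, Il13, Csf2, Areg and Calca, and the enzyme Arg1. They were chosen by name and are 9 of the 18767 genes in the deposited count table of 10275 cells. All 9 had a row in the table and passed the filter on low counts in the sums over all cells and in those of cluster 10. The cells were CD45+ leukocytes sorted from the thyroids of male and female NOD mice (NOD.WT in the labels), a strain prone to autoimmunity, which were 4 to 6 weeks old at the start. ICI mice (immune checkpoint inhibition, 16 mice) received anti-PD-1 (clone RPM1-14) with anti-CTLA-4 (clone 9D9) at 10 mg/kg per dose, and isotype mice (10 mice) received control antibodies of clones 2A3 and MPC11, whose dose the labels do not state. Injections were intraperitoneal, were given 2 times a week and ran for 4 weeks in both groups. Mice were pooled into 4 ICI libraries and 1 isotype library, with no number of mice per library in the labels, so the spread between ICI libraries may be technical in part.

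Type 2 innate lymphoid cells are lymphocytes without an antigen receptor that live in tissues and answer signals from damaged or stressed barrier cells. Gata3 is the factor that sets up their program, and Il1rl1 encodes ST2, the receptor through which the alarmin IL-33 activates them. Once activated they release IL-5 and IL-13, and some make GM-CSF (Csf2), the epidermal growth factor family ligand amphiregulin (Areg) and the neuropeptide CGRP, which is encoded by Calca together with the thyroid hormone calcitonin. Many of the same genes are also used by T helper 2 cells, and Areg by regulatory T cells.

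The members lie on 7 mouse chromosomes in build GRCm38 (mm10, GENCODE M21), and all are protein-coding. The 3 cytokine genes share a stretch of 618344 bases on chromosome 11, with Il13 at chr11:53631324-53634702 on the minus strand, Il5 at chr11:53720794-53725106 on the plus strand and Csf2 at chr11:54247271-54249667 on the minus strand. Il1rl1 lies at chr1:40429570-40465415 on the plus strand and Gata3 at chr2:9857078-9890034 on the minus strand. Areg (chr5:91139599-91148432, plus), Klrg1 (chr6:122270596-122282882, minus), Calca (chr7:114631478-114636357, minus) and Arg1 (chr10:24915221-24927484, minus) stand apart. RefSeq promoter windows for build GRCm38.p6 were matched for 7 of the 9 members, all except Klrg1 and Arg1. The 250 bases before the start are shown for the neighbouring cytokine genes Il5 and Il13 and for the Il1rl1 start with the most letters that GATA factors are known to bind, because Gata3 was among the members with a UMI in most cells of the cluster described below. Sequences run 5′ to 3′ on the gene's strand, and capitals mark GATA with A or T before it and A or G after it, searched on both strands.
Il5, chr11:53720544-53720793, plus strand: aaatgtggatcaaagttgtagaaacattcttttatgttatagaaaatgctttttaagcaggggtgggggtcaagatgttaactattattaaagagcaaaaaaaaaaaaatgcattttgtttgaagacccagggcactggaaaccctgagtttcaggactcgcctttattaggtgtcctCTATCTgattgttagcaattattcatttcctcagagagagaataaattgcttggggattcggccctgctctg
Il13, chr11:53634703-53634952, minus strand: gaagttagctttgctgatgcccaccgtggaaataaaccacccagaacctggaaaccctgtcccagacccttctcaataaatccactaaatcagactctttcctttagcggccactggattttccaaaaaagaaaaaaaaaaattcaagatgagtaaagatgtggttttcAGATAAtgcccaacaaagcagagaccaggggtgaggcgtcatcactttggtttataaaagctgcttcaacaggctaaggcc
Il1rl1, chr1:40429320-40429569, plus strand: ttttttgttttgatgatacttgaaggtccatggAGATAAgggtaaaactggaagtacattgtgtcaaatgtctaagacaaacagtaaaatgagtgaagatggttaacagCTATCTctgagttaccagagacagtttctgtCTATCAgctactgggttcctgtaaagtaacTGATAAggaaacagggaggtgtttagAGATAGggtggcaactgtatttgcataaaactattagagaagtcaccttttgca
The Il5 window held 1 match beginning 72 bases before the start, the Il13 window held 1 beginning 81 bases before it, and the Il1rl1 window held 5 between 217 and 54 bases before it. The same letters occurred at least 1 time in 26.5% of 32851 promoter windows of this length, so a single match is common. The share of windows with 5 matches was not counted. The other Il1rl1 window and the windows of Calca and Csf2 held 1 match each. The windows of Gata3 and Areg held none, which says only that these letters are not there. They are reference sequence and not that of the NOD strain.

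UMIs were summed per library and are given as CPM, counts scaled to the same total of UMIs in the same cells. Total depth was 3858251 to 4430929 UMIs in ICI 1, 2 and 3, 32296759 in ICI 4 and 8130081 in isotype. The libraries fell into 2 sets that did not follow the treatment: transcripts of the red cell globin Hbb-bs numbered 26385 in ICI 4 and 3218 in isotype and 0 in each of ICI 1, 2 and 3. ICI 2 and ICI 3 shared 140 cell barcodes, of which 5 lay in cluster 10 in both, while other pairs shared 0 to 12. With ICI 2 and ICI 3 summed to 1 library, as with 4 separate libraries, edgeR called 0 of 9 members over all cells and 0 of 9 in cluster 10.

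Among the authors' 17 clusters, cluster 10 had the highest mean level of every member in the ICI libraries. The clusters were made from the expression of these genes along with others, so this order describes cluster 10 and is no test of it. The cluster held 377 of the 10275 cells. Of the 15 marker genes listed for type 2 innate lymphoid cells 5 were among its top 10 genes by fold over all other cells. Of these 5, Hs3st1 alone is not a member. Of the 7 listed genes that are not members, 6 were at 1.5-fold or more (Rora, Il17rb, Hs3st1, Lmo4, Icos and Il2ra). The list was chosen with earlier results of these data known, so these counts describe the cluster and do not test its name. Ptgdr2, the prostaglandin D2 receptor often used as a marker of these cells, was at 0 in every library of the cluster. The macrophage gene Csf1r and the natural killer gene Ncr1 were at 0 in all 377 cells. Trac, the T cell receptor alpha constant gene, was found in 1 to 4 cells per library. Trbc2, a beta constant gene of that receptor, was not so sparse. It stood at 520, 161, 141 and 188 CPM in ICI 1 to 4 and at 257 in isotype. The 8 listed T cell genes summed to 740 to 1499 CPM in the ICI libraries of the cluster and 998 in isotype. Outside the cluster they summed to 5114 to 5474 CPM over the 5 libraries. A UMI of Cd3d, Cd3e or Cd3g was found in 52.2% to 64.6% of the cluster 10 cells of the ICI libraries and in 40.2% of the isotype cells, mostly through Cd3g (328 to 556 CPM in ICI, 326 in isotype). It is called type 2 innate lymphoid-like below.

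**Figure D1:**
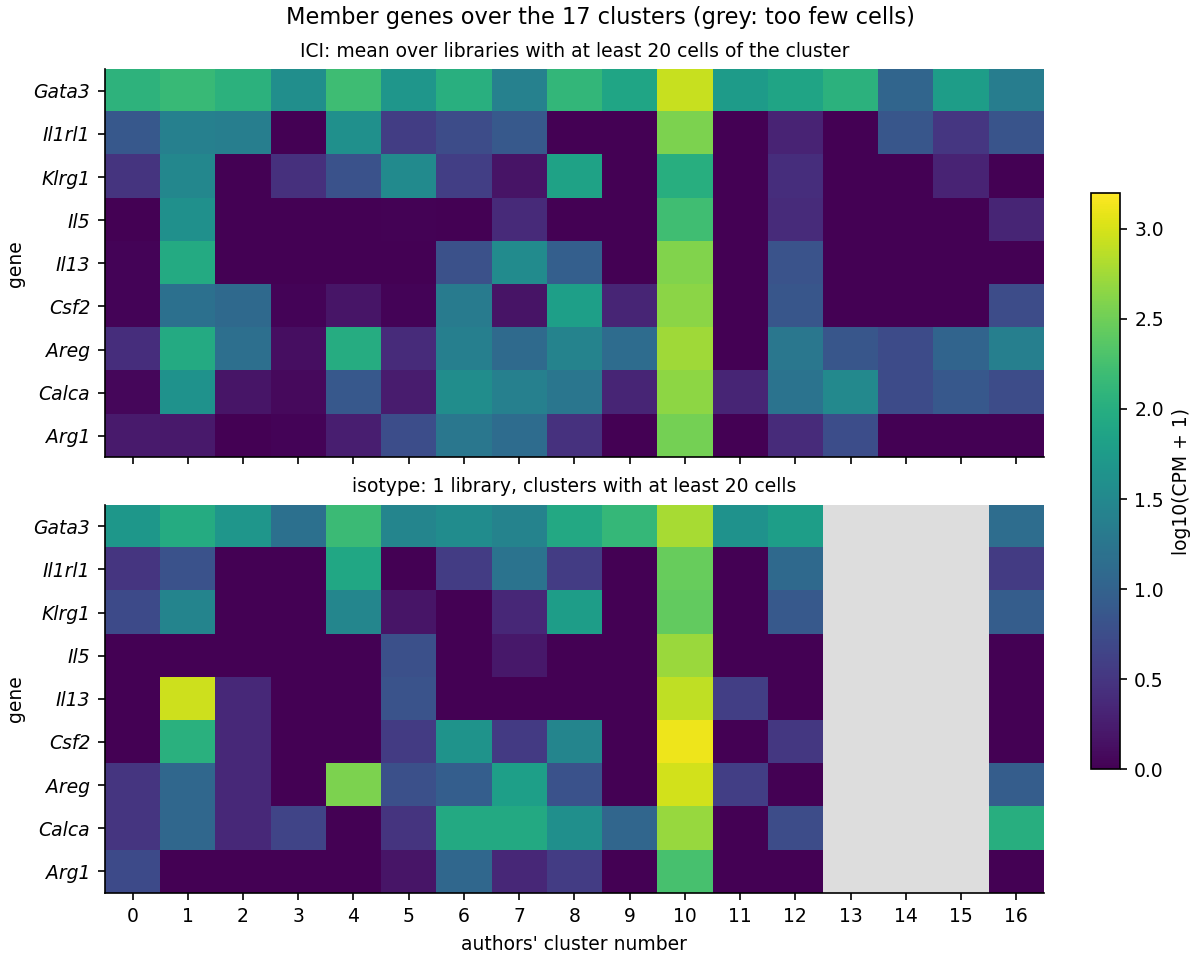
Level of each of the 9 genes (rows) in each of the authors' 17 clusters (columns), as log10(CPM + 1), with the mean over ICI libraries above and the isotype library below; grey marks clusters with fewer than 20 cells in the library. Cluster 10 is the brightest column for every gene in the upper panel, and in the lower panel Il13 in cluster 1, with 907 CPM against 775 CPM in cluster 10, is the exception.

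For Gata3, Il1rl1 and Arg1 the range over ICI libraries in cluster 10 did not overlap that of the next cluster. Gata3 stood at 859 ± 69.5 CPM in cluster 10 (SD, n = 4 ICI libraries) and at 162 ± 49.9 in the next cluster, cluster 4, which was regulatory T-like by 8 of 8 markers including Foxp3. Clusters 4, 1, 8 and 0 followed each other closely for Gata3, and their ranges over ICI libraries overlapped. Il1rl1 stood at 369 ± 45.4 CPM in cluster 10 and at 39.9 ± 17.9 in cluster 4. Arg1, which splits arginine into ornithine and urea, stood at 341 ± 92.1 CPM in cluster 10 and at 17.4 ± 17.6 in cluster 6, which was gamma-delta or type 17 T-like by 10 of 10 markers.

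For the other 6 genes the ranges of cluster 10 and the next cluster overlapped, because the ICI libraries differed among themselves. Il5 averaged 164 ± 253 CPM in cluster 10 and 39.4 ± 77.0 in cluster 1, a T cell cluster led by Gzmk and Ccl5. Il13 averaged 388 ± 584 CPM in cluster 10 and 90.3 ± 181 in cluster 1. Csf2 averaged 444 ± 786 CPM in cluster 10 and 63.3 ± 124 in cluster 8, which was natural killer-like by 10 of 10 markers. Areg averaged 550 ± 869 CPM in cluster 10 and 95.9 ± 98.6 in cluster 4. Calca averaged 454 ± 486 CPM in cluster 10 and 42.1 ± 45.3 in cluster 1. Klrg1, an inhibitory receptor that binds cadherins, averaged 100.5 ± 69.7 CPM in cluster 10 and 69.1 ± 84.4 in cluster 8. Klrg1 was also the member whose order depended on a single library: without ICI 4, cluster 8 ranked first with 87.3 CPM.

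The share of a gene's UMIs that came from cluster 10, as a mean that weights the 5 libraries equally, ranged from 32.6% for Gata3 to 80.2% for Il5 and 78.3% for Arg1, with a median of 56.1% over the 9 genes. With UMIs pooled over libraries, where ICI 4 is the deepest and has the smallest part of its cells in cluster 10, it ranged from 24.8% for Gata3 to 78.5% for Arg1, with a median of 45.1%. Within single libraries the spread was wide: cluster 10 held between 34.3% and 100% of the Il5 UMIs and between 11.1% and 43.3% of the Gata3 UMIs. Gata3 was the member with the most cells outside cluster 10, with a UMI in 2122 of them, of which 2082 also had a Cd3 UMI. Arg1 was found in 53 cells outside cluster 10 and in 175 inside it.

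The first treatment comparison asked whether the members differed between ICI and isotype within the type 2 innate lymphoid-like cells. Cluster 10 held 82, 60, 51 and 67 cells in ICI 1 to 4 and 117 in isotype, which is 5.38%, 4.92%, 4.39% and 1.34% of the ICI cells and 8.65% of the isotype cells. Its median depth was 3440.5 to 4915 UMIs per cell in the ICI libraries and 3076 in isotype.

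The factor and the IL-33 receptor varied less between libraries than the secreted members described below. Gata3 stood at 813, 791, 895 and 939 CPM in ICI 1 to 4 and at 606 in isotype. Il1rl1 stood at 318, 350, 384 and 424 CPM in ICI 1 to 4 and at 285 in isotype. Both were above isotype in every ICI library on the CPM scale, as were 28.2% of the 5436 genes tested in the cluster. That scale carried a shift: the median gene lay 0.25 log2 units higher in ICI before TMM scaling, a correction for the composition of each library, and at -0.01 after it. After scaling, Gata3 ran from 696 to 1142 CPM over the libraries and Il1rl1 from 273 to 515. Both were then above isotype in ICI 3 and 4 and below it in ICI 1 and 2. The fitted log2 fold changes were 0.24 ± 0.40 (SE) for Gata3 and 0.11 ± 0.43 for Il1rl1.

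Arg1 and Klrg1 were the members that stayed on a single side of isotype in all 4 ICI libraries under both scales. Arg1 stood at 321, 449, 365 and 228 CPM in ICI 1 to 4 and at 185 in isotype, a log2 fold change of 0.56 ± 0.38 (SE). Klrg1 stood at 97.5, 57.7, 46.9 and 199.8 CPM in ICI 1 to 4 and at 272 in isotype, a log2 fold change of -1.63 ± 0.76. A position below isotype in every ICI library on the CPM scale was held by 7.01% of the genes tested. Neither gene passed the test, with an edgeR quasi-likelihood adjusted p of 0.985 for each (Benjamini-Hochberg over 5436 genes).

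The 5 secreted members showed a pattern in which ICI 4 stood with isotype and away from ICI 1, 2 and 3. Klrg1 split the libraries in the same way but with isotype highest, at 199.8 CPM in ICI 4 and 272 in isotype against 46.9 to 97.5 in ICI 1 to 3. Il5, the growth and survival factor of eosinophils, stood at 47.0, 33.0 and 32.8 CPM in ICI 1 to 3, at 543 in ICI 4 and at 516 in isotype. Il13, which drives mucus production and tissue remodelling, stood at 72.2, 37.1 and 183 CPM in ICI 1 to 3, at 1259 in ICI 4 and at 775 in isotype. Csf2, which acts on macrophages and dendritic cells, stood at 57.8, 57.7 and 37.5 CPM in ICI 1 to 3, at 1622 in ICI 4 and at 1329 in isotype. Each of the 3 cytokines was thus low in 3 ICI libraries and high in the other ICI library and in isotype. Areg stood at 32.5, 169 and 149.9 CPM in ICI 1 to 3, at 1850 in ICI 4 and at 960 in isotype. Calca stood at 90.3, 198 and 365 CPM in ICI 1 to 3, at 1163 in ICI 4 and at 513 in isotype. For all 5 secreted members ICI 4 was the highest library, isotype was next, and ICI 1, 2 and 3 were below both. How many of all genes had this order was not counted.

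**Figure D2:**
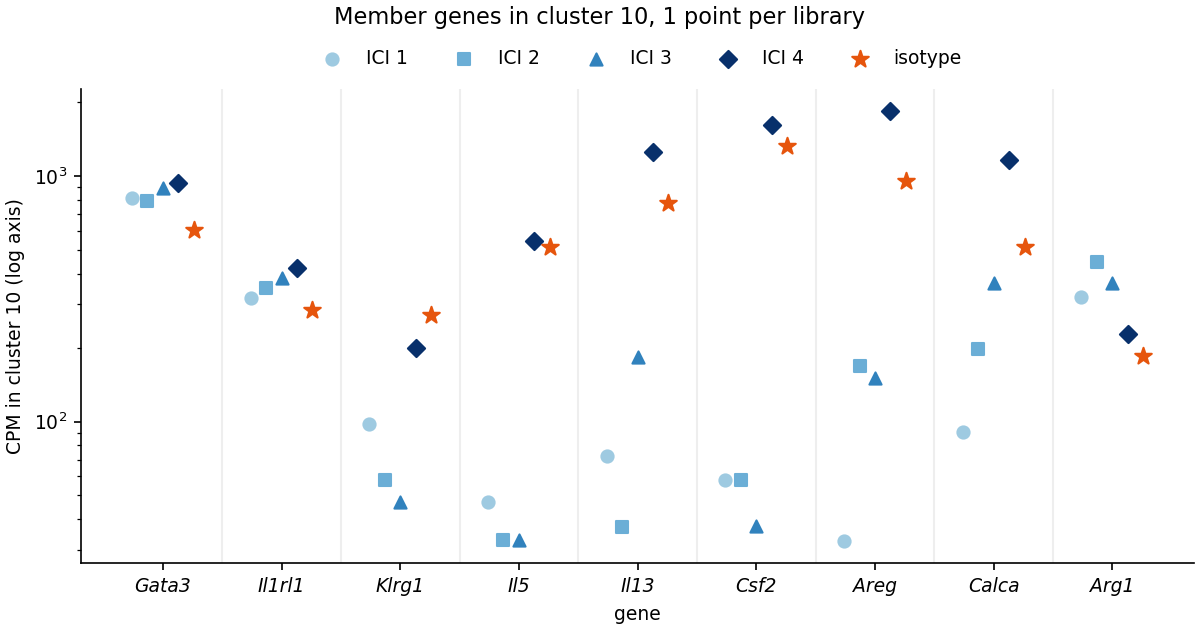
CPM of each of the 9 genes in cluster 10 on a log axis, with 1 point per library (circles, squares, triangles and diamonds for ICI 1 to 4, stars for isotype). For Il5, Il13, Csf2, Areg and Calca the ICI 4 and isotype points lie above those of ICI 1, 2 and 3, as with Csf2 at 1622 and 1329 against 37.5 to 57.8 CPM.

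With all 4 ICI libraries, edgeR called 0 of 9 members in cluster 10, and it called 0% of the 5436 genes. No member had an unadjusted p under 0.05, against 2.89% of all genes, and DESeq2 likewise called 0 of 9. Adjusted p-values lay between 0.985 and 0.992. The median log2 fold change of the 9 members was -0.82, against 0.05 over all genes tested. The SE of the 5 secreted members was 1.25 to 1.83 log2 units, so differences of a few fold could not have been told from the spread between ICI libraries.

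Without ICI 4, 6 of 9 members were lower in ICI by edgeR, against 7.36% of 5435 genes called lower. The log2 fold changes were -5.10 ± 0.27 (SE) for Csf2, -4.17 ± 0.28 for Il5, -3.48 ± 0.37 for Areg, -3.44 ± 0.37 for Il13, -2.40 ± 0.29 for Klrg1 and -1.67 ± 0.38 for Calca. The edgeR adjusted p ranged from 4.29e-13 for Csf2 to 0.00365 for Calca. Gata3, Il1rl1 and Arg1 did not pass, with log2 fold changes of 0.04, -0.13 and 0.61. This fit compares 3 libraries of one set with the isotype library of the other, so treatment and library set cannot be told apart in it. In this and every other fit without ICI 4 the spread is that between ICI 1, 2 and 3 alone. ICI 2 and ICI 3, which share 140 barcodes, were not summed in these fits, so the SE and p-values may be too small. Within the set that has Hbb-bs UMIs, ICI 4 stood above isotype by a log2 difference of 0.10 for Il5, 0.31 for Csf2, 0.72 for Il13, 0.97 for Areg and 1.20 for Calca and by -0.41 for Klrg1. That comparison is 1 library against 1 and has no replicate. A fit with a term for the library set, in which the lone libraries are assumed to vary as ICI 1, 2 and 3 do, called 0 of 9 members and 0.0184% of all genes.

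**Figure D3:**
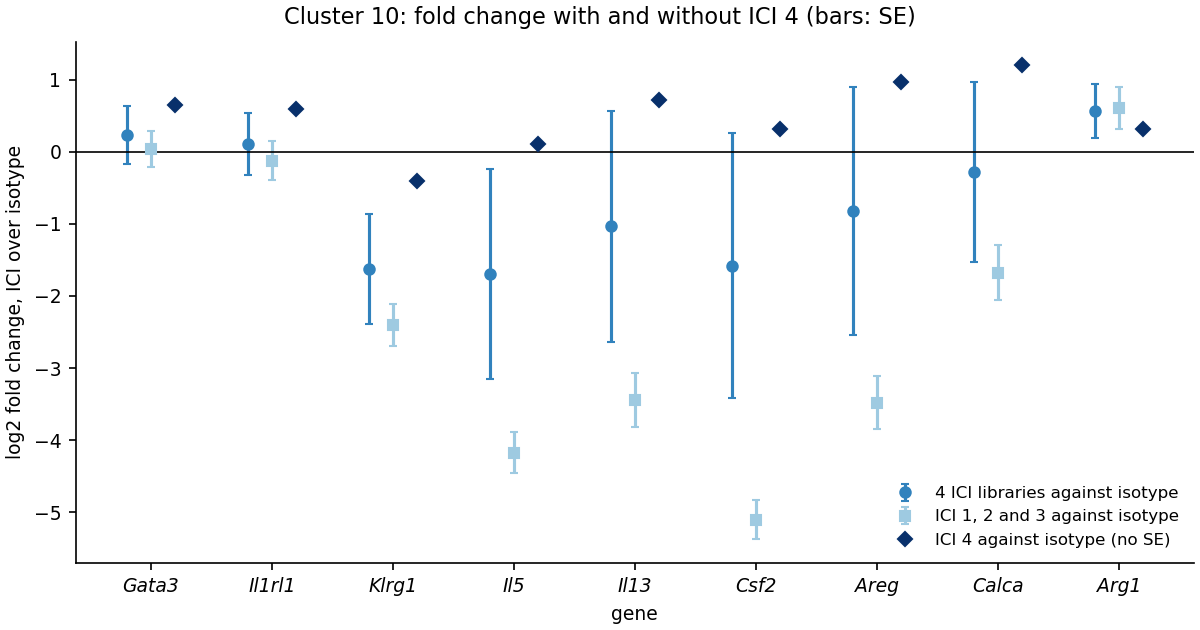
Log2 fold change of ICI over isotype in cluster 10 for each gene, with SE bars, from the fit with all 4 ICI libraries (circles), the fit without ICI 4 (squares) and as the ratio of ICI 4 to isotype alone (diamonds, no error). The 3 estimates lie close together for Arg1 and far apart for Csf2, at -1.58, -5.10 and 0.31.

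Immediate early genes, which rise within minutes of cell activation or tissue digestion, moved with the secreted members. The list of 13 also held the heat shock genes Hspa1a and Hspa1b. Of the 13 listed, 12 had higher CPM in both ICI 4 and isotype than in any of ICI 1, 2 and 3, and Egr1 was the exception. The share of all genes with this order was not counted. Nr4a1, a target of antigen receptor and other activating signals, stood at 101, 367 and 305 CPM in ICI 1 to 3, at 3245 in ICI 4 and at 2040 in isotype. The summed level of the list was 1947, 5515 and 3734 CPM in ICI 1 to 3, while ICI 4 had 13519 and isotype 10098. Without ICI 4, 11 of the 13 were lower in ICI by edgeR in the same fit, beside 7.36% of all genes. Their part in the levels of the secreted members was not tested.

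In ICI 4 the pattern was present in both groups of barcodes that carry different suffixes. Cluster 10 held 33 and 34 cells of these groups, and Il5 stood at 498 and 588 CPM in them, Csf2 at 2074 and 1176 and Areg at 2733 and 978. All 6 values were above those of ICI 1, 2 and 3. The order of the libraries did not turn on single cells for Csf2, which without the cell with the most UMIs in each library stood at 50.6, 45.3, 28.1, 1383 and 1196 CPM in ICI 1 to 4 and isotype. Il5 in isotype rested more on 1 cell, which held 34.3% of its UMIs, and stood at 339 CPM without it.

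For the secreted members the shares of cells, like the levels, were highest in ICI 4, next in isotype and lower in ICI 1 to 3. Among ICI 1 to 3 the order of shares did not always match that of levels, as with Csf2. A UMI of Areg was found in 3 of 82, 5 of 60 and 4 of 51 cluster 10 cells in ICI 1 to 3, in 47 of 67 (70.1%, exact Clopper-Pearson 95% interval 57.7 to 80.7%) in ICI 4 and in 54 of 117 (46.2%, 36.9 to 55.6%) in isotype. Csf2 was found in 11.8% to 18.3% of the cells of ICI 1 to 3, in 56.7% in ICI 4 and in 48.7% in isotype. Calca was found in 7.32% to 11.8% of the cells of ICI 1 to 3, in 49.3% in ICI 4 and in 28.2% in isotype. Il13 was less separated: its share was 9.76%, 8.33% and 21.6% in ICI 1 to 3, against 37.3% in ICI 4 and 28.2% in isotype. Il5 was found in 11.7% to 13.4% of the cells of ICI 1 to 3, in 31.3% in ICI 4 and in 19.7% in isotype, and the intervals of ICI 1 to 3 overlapped that of isotype. Intervals cover counting error only.

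Gata3 was found in 77.6% to 86.7% of the ICI cells and in 71.8% of the isotype cells, and Il1rl1 in 58.5% to 72.5% and 53.0%. Arg1 was found in 52.4%, 61.7%, 56.9% and 43.3% of the cells in ICI 1 to 4 and in 31.6% in isotype. Klrg1 was found in 13.4%, 18.3%, 15.7% and 38.8% of the cells in ICI 1 to 4 and in 47.9% in isotype. For each of these 4 genes the ICI mean share differed from isotype with an exact two-sided permutation p of 0.2, the smallest that 4 libraries against 1 allow, so no share could pass the threshold of 0.05. When each cell was thinned to 1000 UMIs, which left out 11 of 377 cells, Arg1 was found in 28.6%, 28.3%, 31.1% and 16.4% of the ICI cells and in 16.2% of the isotype cells. Klrg1 was then found in 10.4%, 13.3%, 6.67% and 22.4% of the ICI cells and in 23.9% of the isotype cells, and Areg in 2.60%, 3.33%, 4.44% and 53.7% and in 34.2%.

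**Figure D4:**
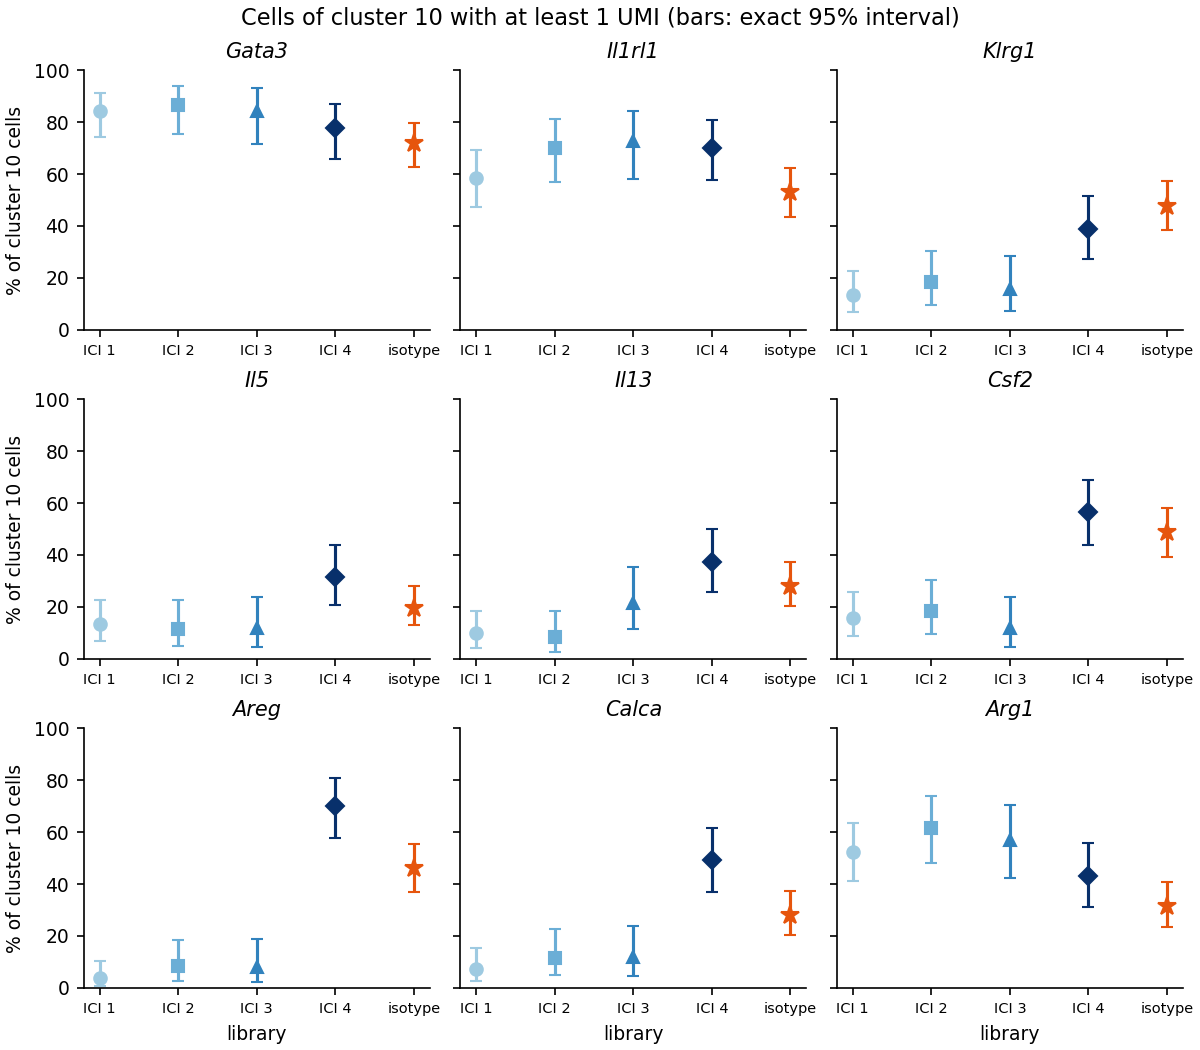
Percent of cluster 10 cells with at least 1 UMI of each gene, by library, with exact 95% Clopper-Pearson intervals. Areg, Csf2 and Calca show ICI 4 and isotype above ICI 1, 2 and 3, as with Areg at 70.1% and 46.2% against 3.66% to 8.33%, while Gata3 lies between 71.8% and 86.7% in all 5 libraries.

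The cells of cluster 14, which were B-like by 8 of 8 markers and should lack the members, served as the background of free RNA. Klrg1, Il5, Il13, Csf2 and Arg1 had a UMI in 0 of 160 such cells, which allows a share of up to 1.88%. Gata3 and Il1rl1 were found in 1.25% each, Areg in 0.625% and Calca in 1.88%. Their median depth was 3692.5 UMIs, against 3562 in cluster 10, where the shares over all libraries ran from 18.0% for Il5 to 79.6% for Gata3.

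Calca also marks the C cells of the thyroid, which make calcitonin. Of the 12 genes listed for C cells and neuroendocrine cells 7 were at 0 in all libraries of cluster 10, including Chgb, Scg2 and Calcb. Chga stood at 0 in the 4 ICI libraries and at 15.4 CPM in isotype. The summed level of the list was 51.5 to 162 CPM in the ICI libraries and 46.2 in isotype, most of it from Pcsk1 and Ret. Counts from 5′ sequencing do not separate the calcitonin and CGRP transcripts of Calca.

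More cells had UMIs of several secreted members in the libraries where each member was frequent, and these counts follow from the shares of the single genes as well as from any tendency to occur together. In ICI 4, 46 of 67 cluster 10 cells (68.7%) had UMIs of at least 2 of the 5 secreted members and 3 had none of them. In isotype 56 of 117 (47.9%) had at least 2 and 29 had none. In ICI 1, 2 and 3, 8.54%, 11.7% and 15.7% had at least 2, and 52 of 82, 32 of 60 and 28 of 51 cells had none. Il13 and Csf2 were both found in 20 cells of ICI 4 and 23 of isotype, and in 3, 1 and 2 cells of ICI 1 to 3. Il5 and Il13, which are neighbours on chromosome 11, were both found in 12 cells of ICI 4 and 11 of isotype, and in 2, 1 and 3 cells of ICI 1 to 3. Cells with Il13 had Csf2 more often than cells without it in all 5 libraries, by 20.1 percentage points on average, and the same was true of Il13 among cells with Il5, by 20.4 points. The exact sign-flip permutation p was 0.0625 for both, the smallest that 5 libraries allow, and 36 pairs were compared. Of these, 7 pairs were positive in all libraries, so this was not particular to neighbouring genes. Gata3 and Arg1, on different chromosomes, had the same sign-flip p, with 17.2 points on average. Il5 and Csf2, both on chromosome 11, were positive in 4 of 5 libraries and stood at -4.58 points in ICI 2. The mean difference was positive for 32 of the 36 pairs, and 34 of the 36 could be computed in all 5 libraries. With cells thinned to 1000 UMIs it was found for 23, but only 15 pairs could then be computed in all 5 libraries, so the counts do not cover the same libraries. Il13 with Csf2 and Il5 with Il13 were positive in the 2 libraries that still had enough positive cells.

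Over all cells, the sums mix the number of type 2 innate lymphoid-like cells with their RNA per cell, and fewer cells of a type and less RNA per cell cannot be told apart in them. Csf2 stood at 4.29, 9.85, 9.82 and 24.9 CPM in ICI 1 to 4 and at 70.7 in isotype. Il5 stood at 4.06, 2.07, 1.60 and 12.3 CPM in ICI 1 to 4 and at 26.2 in isotype. Il13 stood at 4.74, 2.59, 10.5 and 32.0 CPM and at 59.5 in isotype. Areg and Calca were below isotype in every ICI library too, so 5 of 9 members were, against 19.1% of the 12659 genes tested. Their log2 fold changes ran from -2.56 ± 0.80 (SE) for Csf2 to -1.34 ± 0.79 for Calca. edgeR called 0 of 9 members, and it called 0% of the genes. The edgeR adjusted p was 0.816 to 0.963. An unadjusted p under 0.05 was reached by Csf2 alone among the members and by 4.08% of the genes. DESeq2 called 0 of 9 members and 0.3% of the genes. Without ICI 4, Il5 (-3.47) and Csf2 (-3.27) were lower in ICI with edgeR adjusted p of 0.0464 and 0.0472, beside 1.29% of 12503 genes called lower. Cluster 10 made up a larger part of the isotype library than of any ICI library, by the shares given above.

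Outside cluster 10 edgeR called 0 of 9 members and 0% of 12531 genes, with adjusted p of 0.806 to 0.986, and 0 of 9 members had an unadjusted p under 0.05, against 4.22% of genes. DESeq2 called 0 of 9 members and 0.287% of the genes there. Gata3 stood at 72.7, 104.8, 96.2 and 58.6 CPM in ICI 1 to 4 and at 39.9 in isotype, a log2 fold change of 0.96 ± 0.39 (SE, edgeR adjusted p = 0.806). It was the only member above isotype in all 4 ICI libraries there, as were 26.7% of the genes tested.

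Il13 outside cluster 10 came from few cells. Of the Il13 UMIs of all cells 752 of 1596 lay in cluster 1, in 21 of its 1343 cells, of which 19 were in ICI 4 and 2 in isotype. All 21 had a Cd3 UMI, 17 had Cd40lg, 17 had Gata3, 13 had Il1rl1, 14 had Areg and 11 had Il5, while 12 had Cd4 and 1 had Cd8a. Il4, the T helper 2 cytokine, was found in 12 of them. The cell with the most held 225 Il13 UMIs, and in isotype 162 of the 169 UMIs lay in 1 cell. Il5 outside cluster 10 was found in 24 cells, all with a Cd3 UMI, and was at 0 in ICI 2 and ICI 3. In cluster 10 Il4 had 2 to 9 UMIs per library, in 2 to 8 cells. Over the whole of cluster 1 the Il4 UMIs numbered 224 in ICI 4, 53 in isotype and 8, 5 and 5 in the other 3 libraries. The count of cluster 1 cells with Il13 was 0 of 392, 0 of 313 and 0 of 270 in ICI 1 to 3, so the same libraries that were low in cluster 10 held none.

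Areg was found in 360 cells outside cluster 10, of which 351 had a Cd3 UMI and 114 a Foxp3 UMI. In the regulatory T-like cluster 4 it stood at 0, 73.3 and 76.2 CPM in ICI 1 to 3, at 234 in ICI 4 and at 374 in isotype. It was found there in 139 of 569 cells in ICI 4 (24.4%) and in 10 of 28 in isotype (35.7%), against 0 of 160, 2 of 48 and 4 of 45 in ICI 1 to 3. In cluster 1 it stood at 298 CPM in ICI 4 and at 5.91 to 38.9 CPM in the other 4 libraries. In the natural killer-like cluster 8 it was at 0 in ICI 1 to 3, at 105 CPM in ICI 4 and at 5.45 in isotype. ICI 4 was thus the highest library in clusters 1 and 8 but not in cluster 4, where the isotype value rests on 52 UMIs, of which 33 lay in 1 cell.

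Outside cluster 10 Csf2 had 271 UMIs in cluster 8, 106 in cluster 1 and 77 in cluster 6, the last with gamma-delta and type 17 T cell markers, and the ranges of these clusters over ICI libraries overlapped. In cluster 8 it stood at 0, 3.68 and 0 CPM in ICI 1 to 3, at 249.5 in ICI 4 and at 27.3 in isotype, with 25 of 167 cells positive in ICI 4 and 7 of 76 in isotype. In cluster 6 it was at 0 in ICI 1, and at 25.2, 30.5 and 25.2 CPM in ICI 2 to 4 and 43.3 in isotype, so that ICI 4 did not stand apart there. Within clusters 4, 7 and 8, 3, 6 and 6 of the members could be tested, and edgeR called none of them, while it called 0.144%, 0% and 0% of all genes. The adjusted p was 0.624 or higher, and none had an unadjusted p under 0.05, against 5.26%, 8.55% and 2.35% of genes. With a term for the library set edgeR called Csf2 and Areg higher in ICI in cluster 8, beside 0.272% of 6992 genes. That term leaves ICI 4 against isotype, 1 library each, and takes the spread from ICI 1 to 3, which are at or near 0 for both genes, so the call says nothing about replicates and is not used. In the macrophage-like cluster 7, without ICI 4, Areg (-5.75) and Calca (-3.39) were lower in ICI with edgeR adjusted p of 0.00848 and 0.0297, beside 4.16% of 8807 genes called lower. In isotype 133 of the 136 Calca UMIs of cluster 7 lay in 1 cell. With no filter on low counts Areg was lower in ICI in cluster 4 (-1.84, edgeR adjusted p = 0.0478), beside 0.486% of 14208 genes called lower.

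**Figure D5:**
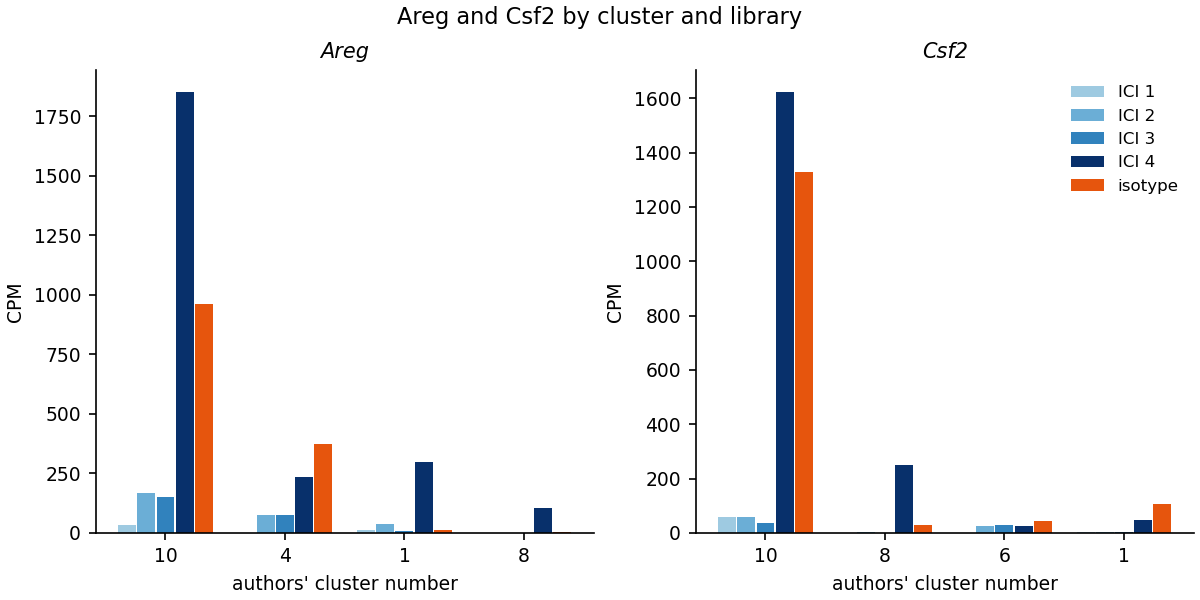
CPM of Areg (left) and Csf2 (right) in cluster 10 and in the 3 clusters that follow it, with 1 bar per library and an axis from 0. ICI 4 is the highest bar for Areg in clusters 10, 1 and 8 (1850, 298 and 105 CPM) and for Csf2 in clusters 10 and 8 (1622 and 249.5 CPM), while isotype is highest for Areg in cluster 4 and for Csf2 in clusters 6 and 1.

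Other genes of the pathway were read from lists of receptors, transcription factors and cytokines. Of 28 receptors that activate or restrain type 2 innate lymphoid cells, 24 were tested in cluster 10 and 0 were called by edgeR, with a median log2 fold change of 0.22 against 0.05 over all genes. Vipr2, a receptor of the neuropeptide VIP, stood at 166, 140 and 122 CPM in ICI 1 to 3, at 44.0 in ICI 4 and at 41.1 in isotype. Nmur1, the neuromedin U receptor, stood at 152, 194 and 225 CPM in ICI 1 to 3, at 52.0 in ICI 4 and at 59.0 in isotype. These 2 neuropeptide receptors ran opposite to the secreted members, being high in ICI 1 to 3 and low in ICI 4 and isotype. Il2rb, a chain of the IL-2 and IL-15 receptors, stood at 36.1, 70.02 and 46.9 CPM in ICI 1 to 3, at 199.8 in ICI 4 and at 146 in isotype. Crlf2, the receptor chain for TSLP, had a log2 fold change of -0.70 ± 0.73 (SE). Without ICI 4, Nmur1 and Vipr2 were higher in ICI by edgeR, beside 1.38% of genes, and Il2ra, Il2rb, Il4ra, Ramp3 and Tnfrsf18 were lower, beside 7.36% of genes.

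Of 20 transcription factors, 17 were tested in cluster 10 and 0 were called, with a median log2 fold change of -0.08. Stat6, which carries IL-4 and IL-13 signals, stood at 108, 132, 79.7 and 63.9 CPM in ICI 1 to 4 and at 43.6 in isotype. Klf4 stood at 36.1, 65.9, 23.4 and 87.9 CPM in ICI 1 to 4 and at 175 in isotype, below isotype in all 4. Maf and Tcf7 had log2 fold changes of 0.80 ± 0.52 and -1.58 ± 0.95 (SE). Without ICI 4, 5 of the 17 (Tcf7, Nfil3, Batf, Klf4 and Lmo4) were lower in ICI by edgeR, beside 7.36% of all genes. Rora stood at 617 ± 282 CPM in cluster 10 (SD, n = 4) and was highest there, as were Id2 at 945 ± 41.6 and Pparg at 69.6 ± 8.57. These factors were named after their values were seen. Others of the 20 were highest in other clusters, as with Bcl11b, Gfi1, Ets1, Zbtb16, Tox, Maf and Tcf7. Tcf7 stood at 26.7 ± 28.4 CPM in cluster 10 and at 1703 ± 64.5 in cluster 11 (n = 2). Of 9 other cytokines, 7 had a row and 2 were tested in cluster 10: Bmp7 stood at 116 to 177 CPM in ICI and 89.8 in isotype, and Metrnl at 18.7 to 36.1 in ICI 1 to 3, at 212 in ICI 4 and at 108 in the isotype library. Metrnl was lower in ICI without ICI 4, with a log2 fold change of -2.33 ± 0.40 (edgeR adjusted p = 0.000183).

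Receptors for the secreted members were mostly highest in other clusters. Csf2ra stood at 451 ± 176 CPM (SD, n = 4 ICI libraries) in the macrophage-like cluster 7 and at 15.5 ± 11.3 in cluster 10. Csf2rb stood at 99.8 ± 45.3 CPM in cluster 7 and Il13ra1 at 54.9 ± 24.98, and both were at 0 in cluster 10 in the ICI libraries. Il5ra had 27 UMIs in all cells. Egfr, the receptor for amphiregulin, had 82 UMIs in 58 cells and was highest in cluster 6 at 17.3 ± 13.7 CPM. Ramp1, a subunit of the CGRP receptor, stood at 1006 ± 216 CPM in cluster 6 and at 768 ± 236 in cluster 10, and its partner Calcrl stood at 71.8 ± 35.0 in cluster 10. Of 13 such genes 3 were tested in cluster 10, with 0 called and a median log2 fold change of 0.20.

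The genes most like the members were found by Pearson correlation of log2(CPM + 10) over 65 sums of cells by cluster and library, among 12401 genes. These sums share cells' libraries and depth, and the values are descriptions. Arg1 was most like Cntnap2 (r = 0.93), Nmur1 (0.92) and Vipr2 (0.91). Il1rl1 was most like Pde7b (0.85), Cntnap2 (0.82) and Vipr2 (0.81), and Gata3 like Ptpn13 (0.79) and Rora (0.78). Il5 was most like Dach2 (0.85), Ccdc184 (0.84) and Hs3st1 (0.83), Il13 like Klf5 (0.81), Hilpda (0.73) and Pparg (0.72), and Csf2 like Ccdc184 (0.82), Hilpda (0.81) and Klf5 (0.81). Areg was most like Hilpda (0.78) and Gadd45b (0.73), Calca like Bmp2 (0.81), Hilpda (0.77) and Jag1 (0.77), and Klrg1 like Rab27b (0.77), Rnf128 (0.72) and Dyrk3 (0.71). The highest mean over all 9 members belonged to Bmp2 and Ccdc184 (0.72 each), followed by Hs3st1, Klf5, Cntnap2, Igsf5, Rnf128, Dach2, Hlf and Ptgir. Among the members themselves r ran from 0.46 for Gata3 with Calca to 0.80 for Il13 with Csf2 and for Il5 with Il13.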

How the data were processed

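The values are raw UMI counts per gene and cell, deposited by the authors as 1 table for all 5 libraries with a table of cells that gives each cell's library and cluster. Libraries were made with a 10x Chromium 5′ kit per the labels' protocols, and Cell Ranger, Seurat and build mm10 are named, without versions, per the submitters' processing notes. The cluster resolution of 0.4 comes from the authors' cell table. The labels give 1688, 1234 and 1178 cells for ICI 1, 2 and 3, where the table holds 1523, 1219 and 1163, and the numbers are equal for ICI 4 and isotype. The authors' cell table also gives the percent of mitochondrial UMIs, at most 25, and Seurat cell cycle scores, which are as deposited and enter no result. No doublet caller was run.

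For each library, counts were summed over all its cells, over each cluster with at least 20 cells and over the cells outside cluster 10. ICI was compared with isotype by edgeR 4.0.16 (R 4.3.3; TMM scaling, filterByExpr with a minimum count of 10, quasi-likelihood test, Benjamini-Hochberg adjustment over all genes tested, threshold 0.05). The SE is the log2 fold change divided by the root of the F statistic. With 1 isotype library the spread is that between the ICI libraries, and p-values measure only the spread between these pooled libraries. Shares of cells carry exact Clopper-Pearson 95% intervals and an exact permutation test (scipy 1.17.1), and a count of 0 was taken to allow up to 3 counts. Marker folds used a pseudocount of 10 CPM. DESeq2 1.42.0, other scaling, no filter, libraries or cells left out, ICI 2 and 3 summed and a marker gate were the alternatives; the term for library set, the levels with a library left out and cells without Trac were added after seeing the data. The edgeR step was tested on simulated data.

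The members, marker lists and pathway lists were chosen with earlier results of these data known. Named genes are the 9 members, the 3 genes most like each and the 10 most like all, and per pathway list the 2 highest and 2 lowest log2 fold changes in cluster 10; some of the genes most like a member are not reported here. Other pathway genes whose levels or calls without ICI 4 are given were chosen after their values were seen.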

Additional observations from a re-analysis of the deposited data

Results flagged for a closer look

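Among the 4 ICI libraries, ICI 4 lay far above the others in cluster 10 for several secreted members, by the gap to its nearest neighbour over the whole range (above Dixon's 95% limit for 4 samples). On the CPM scale this held for Il5 at 543, Il13 at 1259, Csf2 at 1622 and Areg at 1850. For the share of cells with a UMI it held for Il5 at 31.3%, Csf2 at 56.7%, Areg at 70.1% and Calca at 49.3%. These were 8 of 27 groups of 4 libraries examined, all with ICI 4 highest. Dixon's limit marks about 1 in 20 groups when values are normal and groups are independent. The 27 groups share genes, cells and libraries, and normality was not checked, so the 8 cannot be set against that rate. The rule was not applied to all genes, so the share of them it would mark in cluster 10 is not known. Levels and shares of a gene come from the same cells, so they are not separate observations. ICI 4 differs from ICI 1, 2 and 3 in the total depth of the library and in Hbb-bs UMIs. Within cluster 10 its median depth of 3582 UMIs per cell lay inside their range of 3440.5 to 4915. The immediate early list was higher in ICI 4 than in ICI 1, 2 and 3 within cluster 10. Over the pooled cells outside cluster 10 it stood at 3319 CPM in ICI 4, against 1707, 4238 and 4002 in ICI 1 to 3. The list was not examined in other clusters singly. The part of these differences in the flagged values was not tested.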

How the results depend on the processing

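No paired analysis was possible because the replicate numbers were given in accession order and there is a single isotype library. Of the 9 members, 0 passed the edgeR threshold over all cells, in cluster 10 and outside it. Leaving out each ICI library in turn gave 0 to 2 members over all cells and 0 to 6 in cluster 10, the higher numbers being without ICI 4. In clusters 4, 7 and 8 the count was 0, and it was 1 with no filter (Areg in cluster 4, -1.84, adjusted p = 0.0478, beside 0.486% of genes called lower), 0 to 2 with a library left out and 2 with a term for library set, which sets 1 library against 1. The count of members with a lower mean share in ICI was 6 under every alternative run. Cluster 10 ranked first for 9 members, and for 8 without ICI 4. The pairs with a positive mean difference numbered 32, and 23 after thinning, over fewer libraries.

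Log2 fold changes that turned sign are given first with the library-set term and then for ICI 4 against isotype alone. Over all cells these were -0.041 and -0.031 for Gata3, -1.004 and -0.98 for Il1rl1 and -1.87 and -1.80 for Arg1. In cluster 10 they were 0.12 and 0.10 for Il5, 0.75 and 0.72 for Il13, 0.33 and 0.31 for Csf2, 0.99 and 0.97 for Areg and 1.23 and 1.20 for Calca. Outside cluster 10 they were -1.69 and -1.58 for Klrg1, 0.75 and 0.75 for Csf2, 0.98 and 0.98 for Areg and -0.46 and -0.39 for Arg1. In cluster 7 they were 0.85 and 0.71 for Gata3 and -3.19 and -0.60 for Arg1, and in cluster 8 they were -0.48 and -0.43 for Gata3 and 0.078 and 0.10 for Calca. With a marker gate in place of cluster 10 they were -0.50 for Gata3, -0.33 for Il1rl1 and -0.070 for Arg1; the gate took 338 cells, of which 172 lay in cluster 10. Without the highest cell of each gene they were 0.67 for Il13 and 0.35 for Csf2 outside cluster 10, and with ICI 2 and 3 summed 0.20 for Gata3 in cluster 7. With each library left out in turn, Il1rl1 ranged from -0.070 to 0.35 over all cells, from -0.13 to 0.18 in cluster 10 and from -0.24 to 0.31 outside it. Calca ranged from -1.67 to 0.042 in cluster 10, Csf2 from -0.58 to 0.28 and Areg from -1.39 to 0.037 outside it, and Gata3 from -0.29 to 0.072 in cluster 4 and from -0.79 to 0.29 in cluster 7. Apart from the alternatives' own construction, the cause was not tested.

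Over all genes the calls numbered 0 over all cells, against 38 with DESeq2, 210 without ICI 4 and 1 without the highest cells. In cluster 10 they numbered 0, against 3 with no filter, 475 without ICI 4 and 1 each without the highest cells, with the library-set term and with the gate. Outside it they numbered 0, against 36 with DESeq2, 157 without ICI 4 and 1 without the highest cells. In cluster 4 they numbered 6, against 80 with no filter, 54 without ICI 4, 16 without ICI 2, without ICI 3 or with both summed, and 0 without the highest cells. In cluster 7 they numbered 0, against 32 with DESeq2, 4 with no filter and 644 without ICI 4, and in cluster 8 they numbered 0, against 3, 347 and 29 with no filter, without ICI 4 and with the library-set term. With 51 to 117 cells of cluster 10 per library, low genes rest on few UMIs.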

Other observations

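Arg1 stands in a pathway that turns arginine into ornithine and polyamines. Of 11 other genes of arginine and polyamine handling, 6 were tested in cluster 10 and edgeR called 0, with a median log2 fold change of -0.06 against 0.05 over all genes. Odc1, which makes putrescine from ornithine, stood at 25.3, 86.5 and 37.5 CPM in ICI 1 to 3, at 883 in ICI 4 and at 218 in isotype, the library order of the secreted members and not that of Arg1. Without ICI 4 it was lower in ICI, with a log2 fold change of -2.56 ± 0.36 (SE, edgeR adjusted p = 1.09e-05). Ass1, which remakes arginine from citrulline, stood at 44.0 to 98.9 CPM in the ICI libraries and at 84.7 in isotype.

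The alarmins that act on these cells were nearly undetected among the sorted leukocytes. Il33 had 28 UMIs in 15 cells and Tslp had 96 UMIs in 76 cells. Of 11 genes listed as activating signals 7 had a row, and 0 could be tested in cluster 10.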
